A study of Homo sapiens with 6 samples.

Results

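The comparison set 1 clonal line, clone 1, against clones 2 and 3 of Flp-In T-REx 293, a line made from HEK293 human embryonic kidney cells for inducible transgenes. All 6 arrays of the series entered it: 2 of clone 1 and 4 of the other clones. Every clone carried a stable, inducible GFP transgene that was left uninduced. One array of each clone came from cells given siRNA against TET1, TET2 and TET3 together, and the other from cells given a non-targeting pool, with RNA taken 96 hours later, so each clone is 1 line cultured under 2 siRNAs and no clone was grown in repeat under the same siRNA. The values are MAS5 signals, a linear brightness summarised over the probes of a probe set. Differences are log2, clone 1 minus the mean of clones 2 and 3 with the siRNA as a covariate, and a negative value means lower in clone 1. Of 54613 probe sets, the 27306 in the upper 50% by mean signal were tested, standing for 12318 genes. The dimmest one tested and the brightest one left out both had a geometric mean signal of 117. "Called" means an adjusted p under 0.05 in limma.

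Clone 1 was singled out because its arrays were already known to stand apart in these signals. The clone 1 differences, and the counts called from them, are therefore a description of what was chosen, and no test of it. The rule did not use the difference between clones 2 and 3, nor whether clone 1's difference depends on the siRNA. Singling out the clone that stands apart leaves clones 2 and 3 as the closer pair. A small difference between them is thus partly set by that choice. As each clone is 1 line, the errors of the clone 1 fit cover the spread between arrays and that between clones 2 and 3, and no second line like clone 1 was measured.

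HEK293 cells are known for mixed features of embryonic kidney, adrenal and neural cells and for an unstable, aneuploid karyotype, and lines grown from single cells of such a culture can differ in chromosome content and in expression. The TET enzymes oxidise 5-methylcytosine, the first step in removing DNA methylation from CpG sites. Total RNA was the starting material and was hybridised as biotinylated cRNA. DNA content and methylation are not analysed here.

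The targeted genes were lower in every TET siRNA array than in every non-targeting array of the same gene, in clone 1 as in the others. TET1 had signals, TET siRNA first and non-targeting second here and below, of 448 and 3073 in clone 1, 621 and 3123 in clone 2 and 685 and 3470.2 in clone 3. TET2 gave 417 and 868 in clone 1, 283 and 715 in clone 2 and 442 and 820.3 in clone 3, and TET3 gave 505 and 1451 in clone 1, 594 and 1239.5 in clone 2 and 537 and 1138 in clone 3. Over the clones the knockdown difference was -2.48, -1.10 and -1.22 in log2 for TET1, TET2 and TET3. None of the 3 was called between clone 1 and the others, with differences of -0.32 (SE 0.12), 0.21 (SE 0.18) and 0.06 (SE 0.14).

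On array measures, the log2 signals of both clone 1 arrays correlated at 0.986 over the tested probe sets, clone 1 arrays correlated with the rest at 0.972 to 0.980, and the other 4 arrays with each other at 0.981 to 0.986. Clone 1 had the lowest signals of the Alu repeat control, 54970 and 65270 against 70000 to 78030, and of the 5' probe set for 18S ribosomal RNA, 44870 and 51220 against 54340 to 57880. The 3' to 5' ratio of ACTB, a measure of RNA integrity, was 2.15 and 2.06 in clone 1 and 1.89 to 2.07 elsewhere. Of 15 genes known to be expressed in HEK293 cells, 13 were tested and 0 were called, with a median difference of -0.14, and the summed signal of the 14 on the array ranged from 69008 to 79162 in clone 1 and from 80228 to 84608 in the others. Lists of markers of blood, endothelium, fibroblasts and squamous epithelium had 1, 1, 2 and 1 members bright enough to test, none of them called. Their summed signals were 692 to 695 against 589.8 to 766 for blood, 378 to 419.7 against 446 to 464 for endothelium, 1281 to 1627 against 1752 to 1973 for fibroblasts, and 5274 to 6543 against 5509 to 6664 for squamous epithelium. The part of these measures in the clone 1 differences was not tested.

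Both promoters below are shown because LNX1 was the highest and TSPO among the 4 lowest of the genes that were called with clone 1 beyond all other arrays, and because CpG sites are what the TET enzymes act on. Each runs from 250 bases before to 50 bases after the gene's start in RefSeq, build GRCh38.p14, with every CG in capitals. LNX1 lies on the minus strand at chr4:53591437-53591736 and TSPO on the plus strand at chr22:43151309-43151608.
LNX1: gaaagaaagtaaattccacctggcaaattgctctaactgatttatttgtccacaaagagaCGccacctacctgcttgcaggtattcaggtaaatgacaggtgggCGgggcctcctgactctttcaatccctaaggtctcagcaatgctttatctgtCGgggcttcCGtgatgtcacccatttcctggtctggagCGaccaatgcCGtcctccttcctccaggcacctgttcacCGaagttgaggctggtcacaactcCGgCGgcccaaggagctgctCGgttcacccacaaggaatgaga
TSPO: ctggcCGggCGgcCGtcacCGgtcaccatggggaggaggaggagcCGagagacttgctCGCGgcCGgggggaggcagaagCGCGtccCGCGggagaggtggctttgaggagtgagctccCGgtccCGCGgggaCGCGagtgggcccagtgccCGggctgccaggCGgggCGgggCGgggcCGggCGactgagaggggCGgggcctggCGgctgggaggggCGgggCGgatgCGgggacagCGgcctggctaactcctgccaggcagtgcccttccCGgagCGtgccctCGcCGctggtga
The LNX1 window held 10 CG and the TSPO window 33, with CpG ratios (observed over expected from the C and G content) of 0.484 and 0.79. A CG, which reads the same on both strands, occurred in 99.6% of the windows of the 10070 tested genes matched to RefSeq, and 83.7% of them had a ratio over 0.6. That share was 88.7% of the 648 matched genes called higher and 84.5% of the 1169 called lower. The genes called higher were also the brighter ones, with a median geometric mean signal of 3624 against 2031 for those called lower and 1512 over all tested genes. For genes lower by at least 1 the comparison is void, as only 69.1% of them were matched.

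In all, 4087 of the 27306 probe sets were called (15%): 1635 higher (5.99%) and 2452 lower (8.98%) in clone 1. By gene, taking the brightest probe set, 2197 of 12318 were called (17.8%), 746 higher (6.06%) and 1451 lower (11.8%). Large differences ran mostly downwards, with 21 called genes higher and 136 lower by at least 1. The brightness filter used the mean of all 6 arrays, 4 of them from clones 2 and 3. A gene dim only in clone 1 thus passed it more easily than one bright only in clone 1, which favours this direction. Nor was the direction particular to clone 1. In the non-targeting arrays, 42 probe sets lay at least 1 above and 164 at least 1 below both others in clone 2, and 40 and 120 in clone 3. Most called differences were small: the median was 0.43 among probe sets called higher and -0.50 among those called lower. Both clone 1 arrays lay beyond all 4 others in 94.3% of the called probe sets, against 34.6% of all tested ones. Other probe sets of the called genes numbered 2338, of which 1787 had the same sign, 536 were called the same way and 35 the opposite way. The count of 4087 fell to 1124 without the clone 1 TET siRNA array, 1456 without the clone 1 non-targeting array, 2584 without the clone 2 TET siRNA array and 2648 without the clone 3 non-targeting array, and to 2183 with clone 3 left out.

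Among genes higher in clone 1, the first by the naming rule was LNX1, which encodes a ubiquitin ligase that binds the cell fate protein NUMB. Its signals were 1019.8 and 989 in clone 1, 209.9 and 125 in clone 2 and 132 and 93.9 in clone 3, a difference of 2.90 (SE 0.26). NECTIN3, an immunoglobulin-like adhesion molecule of cell junctions, gave 519 and 519.9 in clone 1, 107 and 152 in clone 2 and 72.6 and 119 in clone 3, a difference of 2.25 (SE 0.28). A separate NECTIN3 probe set differed by 2.46. For both genes the clone 1 arrays agreed closely with each other and stood clear of the other 4. The long non-coding RNA gene PURPL, known as a target of p53, followed the same pattern with 455 and 392 in clone 1, 93.4 and 93.8 in clone 2 and 88.3 and 75.8 in clone 3, 2.27 (SE 0.27). For LNX1 and NECTIN3 some signals of clones 2 and 3, and for PURPL all of them, lay under 117, the lowest mean tested. The sizes of these differences are therefore uncertain.

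B3GALNT1, which makes the glycolipid globoside, had 703 and 451 in clone 1, 174 and 96.4 in clone 2 and 234 and 198 in clone 3, a difference of 1.75 (SE 0.29), and clone 3 lay between the other clones. KRT222, a keratin-like gene, had 843 and 513 in clone 1, 283 and 165 in clone 2 and 264 and 149.9 in clone 3, a difference of 1.67 (SE 0.18), and its other probe set differed by 1.63. DLEU2, a long non-coding host transcript of microRNAs, was 3280.0 and 3279.8 in clone 1, 1164 and 1276 in clone 2 and 1536 and 1278 in clone 3, a difference of 1.33 (SE 0.11). Its other probe sets differed by 0.51 and 0.66, so the size depended on the probe set. NUP98, a nuclear pore component, depended on it further: its brightest probe set read 2862 and 2518 in clone 1, 1189.9 and 1000.3 in clone 2 and 1428 and 1115 in clone 3, 1.19 (SE 0.11), while the other tested probe sets gave 0.19 and -0.21. GK3, a processed copy of the glycerol kinase gene GK, had 1293 and 1503 in clone 1, 207 and 295 in clone 2 and 424 and 572 in clone 3. Its probe set carries the mark of possible cross-hybridisation, so this signal cannot be assigned to GK3 apart from its relatives. The remaining genes of the 12 were GPRASP1, PPP3CB-AS1, SIGLEC6 and NUTM2A-AS1, with differences from 1.19 to 1.33.

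**Figure D1:**
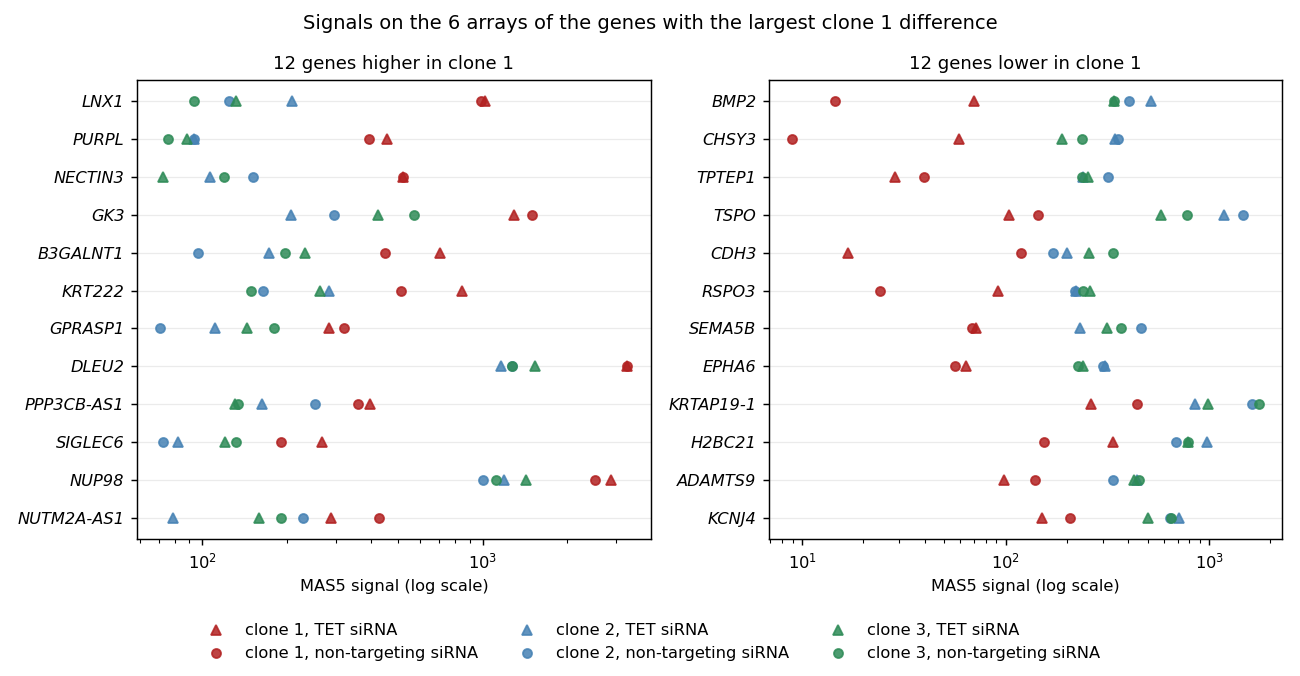
MAS5 signals (log axis) of the 12 genes with the largest called difference in each direction on the 6 arrays, 1 point per array. Clone 1 (red) lies beyond the other 4 arrays in every row because the rule for naming these genes required it; LNX1 was at 989 or more in clone 1 and at 209.9 or less elsewhere. Signals of different genes are not comparable.

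BMP2 and RSPO3, which encode secreted ligands, were among the 12 genes lowest in clone 1 by the naming rule. BMP2, a ligand of the TGF-beta superfamily that patterns bone, kidney and neural tissue, had signals of 70.3 and 14.5 in clone 1, 520.2 and 406 in clone 2 and 341 and 340.1 in clone 3, a difference of -3.63 (SE 0.43). Its other probe set gave 31.9 and 12.3 in clone 1 and 269 to 509 in the others, a difference of -4.32. The clones did not overlap at either probe set. All these clone 1 signals, and both of RSPO3, CHSY3, SEMA5B and EPHA6, lay under 117, the lowest mean tested, where MAS5 values are noisy, so the sizes of these differences are uncertain and no fold is given. RSPO3, a secreted enhancer of Wnt signalling, had 91.4 and 24.3 in clone 1, 222 and 221 in clone 2 and 260.0 and 241 in clone 3, -2.32 (SE 0.40). NOG, the secreted BMP antagonist noggin, was also lower at 341 and 189 in clone 1, 654 and 639 in clone 2 and 895 and 579.9 in clone 3, -1.42 (SE 0.18).

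The other genes of the 12 had varied roles. CHSY3, a chondroitin sulfate synthase, had 58.7 and 8.96 in clone 1, 344 and 358 in clone 2 and 189 and 238 in clone 3, -3.57 (SE 0.61). TSPO, a cholesterol-binding protein of the outer mitochondrial membrane, had 104 and 145 in clone 1, 1188 and 1469 in clone 2 and 578 and 781 in clone 3, -2.94 (SE 0.33). Its TET siRNA signal in clone 1 was also under 117, so no fold is given. Clone 2 was above clone 3 at TSPO, and both were far above clone 1. CDH3, the classical cadherin P-cadherin, had 16.8 and 119.8 in clone 1, 200.0 and 172 in clone 2 and 256 and 335 in clone 3, -2.38 (SE 0.57), with 1 clone 1 array far under the other. SEMA5B, a semaphorin, had 71.9 and 68.7 in clone 1, 233 and 465 in clone 2 and 316 and 370.5 in clone 3, -2.25 (SE 0.27), and EPHA6, an ephrin receptor, had 63.6 and 56.6 in clone 1, 307 and 302 in clone 2 and 241 and 228 in clone 3, -2.15 (SE 0.27). For these guidance genes the clone 1 signals were alike under either siRNA. ADAMTS9, a secreted metalloprotease, differed by -1.81 (SE 0.23), but its other tested probe set by 0.22. The remaining genes of the 12 were TPTEP1, KRTAP19-1, H2BC21 and KCNJ4, with differences from -2.95 to -1.81.

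On chromosome 22 and on 1 stretch of chromosome 6, larger shares of the tested genes were called lower in clone 1 than over all chromosomes, although these regions held only 15.3% of the genes called lower. Of 291 tested genes of chromosome 22, 267 had a negative difference, 142 (48.8%) were called lower and 0 were called higher, against 11.8% and 6.06% of all tested genes. The median of the chromosome was -0.42, a clone 1 signal 0.746 times that of the others, with quartiles of -0.67 and -0.20. Within the TET siRNA arrays the median was -0.44 and within the non-targeting arrays -0.45. Each clone 1 array against a single array of clone 2 or 3 under the same siRNA gave medians from -0.46 to -0.41 (SD 0.022 over these 4 pairings), while clone 2 minus clone 3 had a median of 0.01. The medians of the other chromosomes lay between -0.09 on chromosome 6 and 0.003 on chromosome 16, and that of all tested genes was -0.03.

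**Figure D2:**
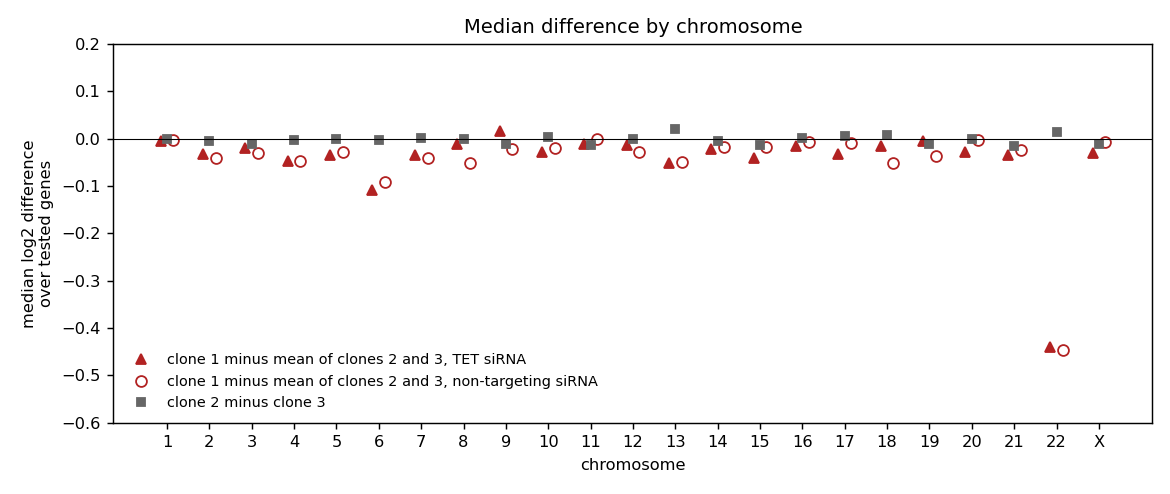
Median log2 difference over the tested genes of each chromosome (horizontal axis), clone 1 minus the mean of clones 2 and 3 within each siRNA (red) and clone 2 minus clone 3 (grey). Chromosome 22 stands at -0.44 and -0.45 for clone 1 and at 0.01 between clones 2 and 3; chromosome 6 is next at -0.11 and -0.09.

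Windows of 25 consecutive tested genes placed the low values. On chromosome 22, 239 of 267 windows had a median of -0.3 or lower, and on chromosome 6, 132 of 654 did. Of the 10821 windows on the other chromosomes 0 did, and their lowest was -0.25, running from WDR3 to CHD1L on chromosome 1. The 3 lowest windows that did not overlap were all on chromosome 22. They ran from LINC01315 to ATXN10 (median -0.60, 18 of 25 genes called lower), from DGCR5 to PI4KA (-0.60, 13 called lower) and from CRYBB2P1 to NIPSNAP1 (-0.56, 15 called lower). Their medians were -0.62, -0.52 and -0.45 within the TET siRNA arrays and -0.56, -0.57 and -0.62 within the non-targeting arrays, and between clones 2 and 3 they were 0.08, 0.07 and -0.02.

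At ATXN10, TBX1 and NIPSNAP1, genes of these windows, clone 1 was the lowest under either siRNA. ATXN10, the ataxin of an inherited spinocerebellar ataxia, had 14279.9 and 14437 in clone 1, 24239.6 and 24209.7 in clone 2 and 22668 and 23187 in clone 3, -0.71 (SE 0.06). TBX1, a T-box factor deleted in the chromosome 22 deletion syndrome, had 536 and 602 in clone 1, 1132 and 1174 in clone 2 and 958 and 1250.2 in clone 3, -0.98 (SE 0.12). NIPSNAP1, a mitochondrial protein, had 2963 and 3047 in clone 1, 5184 and 4927 in clone 2 and 4744 and 4924 in clone 3, -0.72 (SE 0.07). At all 3 genes clones 2 and 3 were close to each other and clone 1 was well below both. PI4KA, a phosphatidylinositol kinase, differed by -0.60 (SE 0.09), the transcriptional coregulator MN1 by -1.07 (SE 0.21), GAS2L1 by -0.97 (SE 0.19), LINC01315 by -1.06 (SE 0.12) and TMEM191A by -1.72 (SE 0.45), though at TMEM191A the clones overlapped. DGCR5 at -0.67 (SE 0.33) and CRYBB2P1 at -0.28 (SE 0.13) were not called.

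Well-studied genes of chromosome 22, picked after their values were seen, varied in size. BCR, the fusion partner in chronic myeloid leukaemia, had 596 and 525 in clone 1, 1097 and 859 in clone 2 and 865 and 858 in clone 3, -0.71 (SE 0.13). CRKL, a signalling adaptor, had 6333 and 6600.4 in clone 1, 10334 and 8683 in clone 2 and 9655 and 9113 in clone 3, -0.54 (SE 0.07), the tumour suppressor NF2 differed by -0.50 (SE 0.11), with -1.05 to 0.08 at other probe sets, and the non-muscle myosin MYH9 by -0.48 (SE 0.11). Among the not called were the chromatin remodelling subunit SMARCB1 at -0.34 (SE 0.12), the stress factor XBP1 at -0.30 (SE 0.10), the replication helicase subunit MCM5 at -0.29 (SE 0.15) and the protease inhibitor TIMP3 at -0.24 (SE 0.11). EP300, a histone acetyltransferase, had 1688 and 1772 in clone 1, 1778 and 1766 in clone 2 and 2008 and 1896 in clone 3, -0.10 (SE 0.09), and EWSR1, an RNA-binding protein, differed by -0.02 (SE 0.06): these clones overlapped. The lower signal was thus common on the chromosome but not uniform.

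The chromosome 6 stretch, delimited after the windows were seen as the longest run of genes with a 15-gene running median of -0.3 or lower, held 133 tested genes from HLA-J to KCNK5 and included the major histocompatibility complex. Its median was -0.49 (-0.47 within either siRNA, and -0.53 to -0.44 over the 4 pairings), and 80 genes (60.2%) were called lower and 0 higher. The median between clones 2 and 3 was -0.002. The 25 genes just before it had a median of -0.09 and the 25 just after it 0.04, against -0.43 and -0.51 for the first and last 25 inside. KIF6, the next gene after the stretch, was 0.55. A total of 148 tested genes before the stretch had a median of -0.08 and 397 after it had -0.01. As the low values themselves set the ends, these medians describe the stretch and test nothing.

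**Figure D3:**
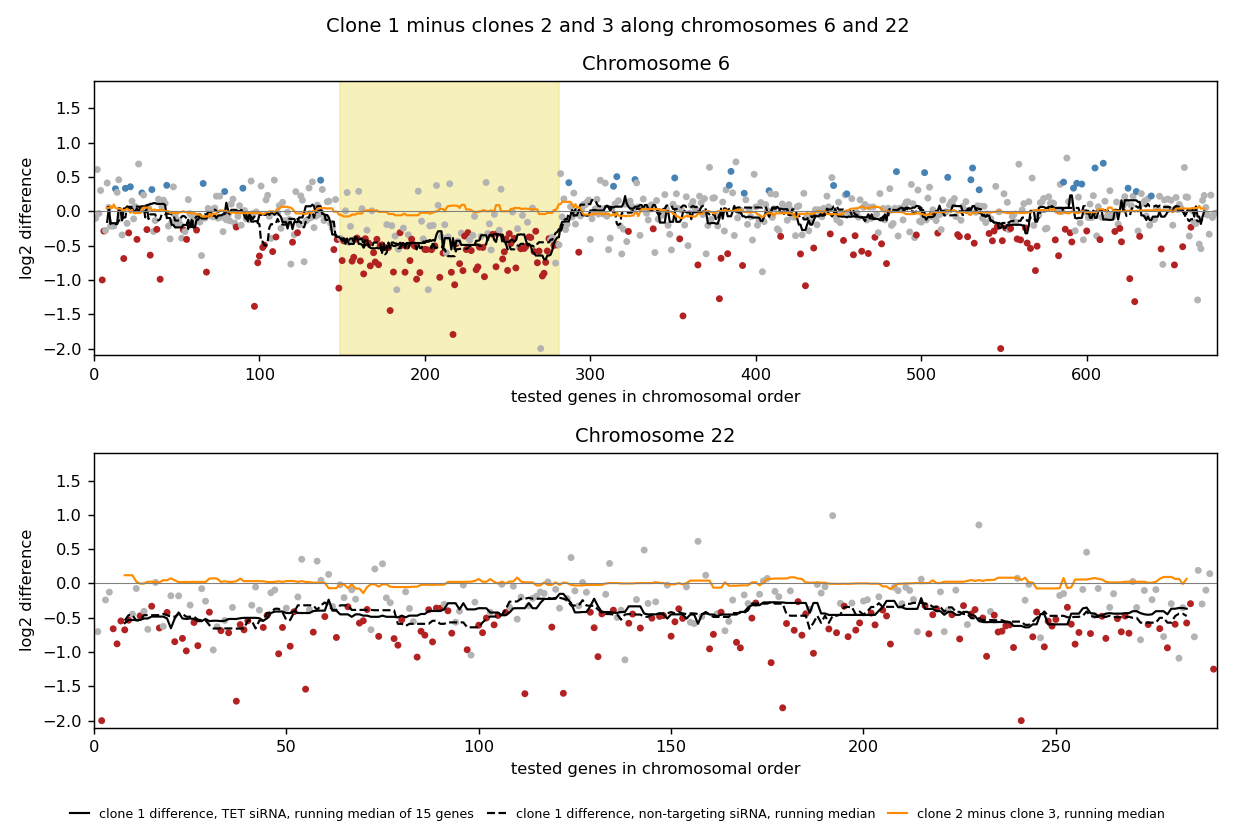
Log2 difference of each tested gene (points; red called lower, blue called higher, grey not called; values under -2 are drawn at -2) in chromosomal order on chromosomes 6 and 22, with running medians of 15 genes. The 133 shaded genes of chromosome 6 have a median of -0.49, all of chromosome 22 one of -0.42, and the clone 2 minus clone 3 line stays near 0 on both.

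Within the stretch, genes of antigen presentation stood beside genes of unrelated roles. The class I genes HLA-B, with 7269.8 and 6559 in clone 1, 11134 and 7831 in clone 2 and 10959 and 10306 in clone 3, and HLA-C, with 6097 and 5787 in clone 1, 9697 and 7678 in clone 2 and 8972 and 8114 in clone 3, differed by -0.53 (SE 0.10) and -0.53 (SE 0.07). The peptide transporter subunit TAP2 differed by -0.61 (SE 0.10), while TAP1 at -0.19 (SE 0.11) and the proteasome subunit PSMB9 at -0.60 (SE 0.20) were not called. The class II genes HLA-DRB1, HLA-DPA1 and HLA-DOA differed by -0.96 (SE 0.11), -1.07 (SE 0.12) and -1.79 (SE 0.22), although another HLA-DOA probe set gave 0.39, and HLA-DMA was 0.40 (SE 0.31) and not called. Probe sets of the HLA genes can cross-hybridise between family members.

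BRD2, a bromodomain protein that reads acetylated histones, had 7373 and 7179 in clone 1, 14373 and 13684 in clone 2 and 12597 and 13246 in clone 3, -0.89 (SE 0.07). SRPK1, a splicing kinase, had 14692 and 16523 in clone 1, 22998 and 23107 in clone 2 and 21810.4 and 22740.3 in clone 3, -0.54 (SE 0.06), and FKBP5, a cochaperone of the glucocorticoid receptor, had 5245 and 5759 in clone 1, 7902 and 7945 in clone 2 and 7892 and 8347 in clone 3, -0.55 (SE 0.06). At the probe sets shown for these 3 genes the clones were separated by more than the spread among clones 2 and 3. Another SRPK1 probe set gave -0.15 and was not called, and there the clones overlapped. MDC1, a DNA damage adaptor, differed by -0.79 (SE 0.07), the kinase PIM1 by -0.94 (SE 0.12) and the apoptosis effector BAK1 by -0.53 (SE 0.14). The histone methyltransferase EHMT2 differed by -0.89 (SE 0.23), the Polycomb protein RING1 by -0.36 (SE 0.09) and the immune transcript HCP5 by -1.45 (SE 0.29). Other probe sets of EHMT2 and RING1 gave -0.37 and -0.35 and were not called. FGD2 at -2.06 (SE 0.55), the histone chaperone DAXX at -0.07 (SE 0.21) and the sialidase NEU1 at 0.29 (SE 0.14) were not called. TUBB, a beta-tubulin gene of the stretch, had 28029.8 and 31124 in clone 1, 30868 and 26359 in clone 2 and 29979 and 30567 in clone 3 at its brightest probe set, 0.01 (SE 0.08), where the clones overlapped, while its other tested probe sets gave -0.15 and -0.51. TRIM27, a tripartite motif protein encoded just before the stretch, was -0.17 (SE 0.10), with 0.18 and 0.22 at other probe sets, and was not called at any. These genes too were picked after their values were seen.

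Higher windows were weaker. The highest median was 0.23, from TSPAN6 to TCEAL3 on the X chromosome, with 9 of 25 genes called higher and 1 lower. CENPI, a centromere protein in it, had 1038 and 1081 in clone 1, 386 and 449 in clone 2 and 786 and 522 in clone 3, 1.04 (SE 0.25), and GPRASP1 was the other largest called gene. The next, from ARHGAP20 to HTR3A on chromosome 11, had a median of 0.21 over the fit but 0.10 and 0.12 within the siRNA groups. Its largest called gene, ARHGAP20, was lower at -0.90 (SE 0.17), as was NCAM1 at -0.33 (SE 0.09), with -0.23 and 0.61 at other probe sets. The third, from TOP2A to STAT5A on chromosome 17, had a median of 0.20 and 6 genes called higher, led by KRT222 and KRT10-AS1, the latter at 0.58 (SE 0.08). The end genes TSPAN6 (0.19), TCEAL3 (0.23), HTR3A (0.41), TOP2A (-0.05) and STAT5A (0.83) were not called. Another TSPAN6 probe set gave 0.30 and was called higher. None of the 11742 windows reached 0.3.

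Chromosome 22 and the chromosome 6 stretch together held 424 genes, 3.44% of those tested, and 222 genes called lower, 15.3% of all genes called lower. Without them, 746 genes were called higher (6.27%) and 1229 lower (10.3% of 11894). Most genes called lower in clone 1 thus lay elsewhere.

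The 29 gene lists give the functions. With 11.8% of all tested genes called lower and 6.06% higher, list shares are set beside those values and not tested. Of 28 tested collagens, laminins and other matrix genes, 11 were called lower and 0 higher (median -0.37, and -0.24 with clone 3 left out). The fibronectin gene FN1 had 1489.8 and 1574 in clone 1, 2739 and 2007 in clone 2 and 3190.3 and 2552 in clone 3, -0.76 (SE 0.13), and the laminin chains LAMA5 and LAMA1 differed by -0.96 (SE 0.17) and -0.73 (SE 0.11). Among 14 integrins, 3 were lower and 1 higher (median -0.32, and -0.21 within the non-targeting arrays), including ITGA8, which takes part in kidney budding, at -0.80 (SE 0.16) (-0.49 and 0.08 at other probe sets, not called), ITGA7 at -0.66 (SE 0.18) and ITGB5 at -0.38 (SE 0.11). Among 16 cadherins and protocadherins 3 were lower and 0 higher (median -0.02): CDH3, CDH1 or E-cadherin at -0.80 (SE 0.13), and the desmosomal linker DSP at -0.27 (SE 0.07).

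Apart from the Wnt list, signalling lists leaned the same way. In the TGF-beta and BMP list 11 of 37 were lower and 2 higher (median -0.14), led by BMP2, NOG and the ligand TGFB1 at -0.97 (SE 0.29). In the Notch list 7 of 22 were lower and 0 higher (median -0.32). JAG1, a Notch ligand, had 3486 and 3371 in clone 1, 5598 and 5473 in clone 2 and 4889.7 and 4823 in clone 3, -0.60 (SE 0.08), and the Notch-responsive repressor HEY1 had 3003 and 3700.0 in clone 1, 5298 and 6946 in clone 2 and 4501 and 6322 in clone 3, -0.77 (SE 0.08). HES6 differed by -0.58 (SE 0.12). In these genes clone 1 was below the other clones under either siRNA. The Wnt list had 6 lower and 2 higher of 36, nearer the shares over all tested genes (median -0.09, and -0.06 with clone 2 left out). It included RSPO3, the secreted antagonist SFRP1 at -0.62 (SE 0.09) and the receptor FZD4 at -0.47 (SE 0.14). Other SFRP1 probe sets gave -0.22 and -0.17 and were not called. Growth factors and receptor tyrosine kinases had 12 lower and 0 higher of 38 (median -0.28). EGFR, the epidermal growth factor receptor, had 279 and 360.0 in clone 1, 575 and 619 in clone 2 and 506 and 557 in clone 3, -0.83 (SE 0.15). Its other tested probe sets gave -0.31 and -0.28. The GDNF coreceptor GFRA1 was -0.77 (SE 0.21), with 0.20 at another probe set. The IGF-binding protein IGFBP5 was -0.68 (SE 0.15), with -1.33 to -0.38 at other probe sets.

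Of 25 ion channel genes 8 were lower and 0 higher (median -0.36). KCNMA1, the large-conductance calcium-activated potassium channel, had 226 and 181 in clone 1, 739.8 and 465 in clone 2 and 740.3 and 489 in clone 3, -1.55 (SE 0.16), and the inward rectifier KCNJ2 had 104 and 145 in clone 1, 294 and 404 in clone 2 and 429 and 413 in clone 3, -1.64 (SE 0.22). Both were below the other clones without overlap, with the KCNJ2 TET siRNA signal of clone 1 under 117, the lowest mean tested. The calcium channel subunit CACNB2 was -0.98 (SE 0.14), with 0.11 at another probe set. Axon guidance genes had 5 lower and 1 higher of 39 (median -0.19), near the background share: PLXNC1, a semaphorin receptor, was -1.41 (SE 0.16) with 0.78 at another probe set, EFNA2 -0.85 (SE 0.12) and RGMB -0.64 (SE 0.09). Neuronal genes had 2 lower and 2 higher of 24 (median -0.11, with -0.23 in the TET siRNA arrays and 0.06 in the non-targeting arrays). SYT11 was 0.70 (SE 0.20), with -0.26 at another probe set. TUBB3 was 0.32 (SE 0.07), with 0.11 at another probe set, not called, and NCAM1 was -0.33 (SE 0.09).

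Among 52 developmental transcription factors of kidney and neural tissue 12 were lower and 1 higher (median -0.13, and -0.22 with clone 3 left out). PROX1, a homeobox regulator, had 325 and 252 in clone 1, 667 and 575 in clone 2 and 649 and 493 in clone 3, -1.05 (SE 0.15). Another PROX1 probe set gave -0.53 and was not called. NKX2-5 was -0.70 (SE 0.16). HOX genes had 2 lower and 0 higher of 24, a share under that of all genes (median -0.17, and -0.056 with clone 3 left out). They were HOXB4 at -0.58 (SE 0.15) and HOXD10 at -0.22 (SE 0.06). Other HOXD10 probe sets gave -0.11 and -0.33 and were not called. Imprinted genes had 4 lower and 1 higher of 23 (median -0.18, and -0.10 within the TET siRNA arrays). CDKN1C, an imprinted cyclin-dependent kinase inhibitor, had 153 and 157 in clone 1, 330.4 and 573 in clone 2 and 437 and 465 in clone 3, -1.51 (SE 0.21). Its other tested probe sets gave -1.04 to -0.57 and were not called. DLX5 was -0.84 (SE 0.21) and RB1 0.41 (SE 0.11), with -0.09 at another RB1 probe set. Of 44 germline genes, 5 passed the brightness filter and 0 were called. The largest differences were PIWIL2 at 0.48 (SE 0.31) and PRAME at -0.20 (SE 0.14). Genes of DNA methylation had 3 higher and 2 lower of 20 (median 0.09, and 0.02 within the TET siRNA arrays): HELLS, a chromatin remodeller needed for methylation, was 0.49 (SE 0.08), with -0.13 to 0.54 at other probe sets, the glycosylase TDG 0.29 (SE 0.07), with -0.05 at another and the dehydrogenase IDH2 -0.61 (SE 0.13).

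**Figure D4:**
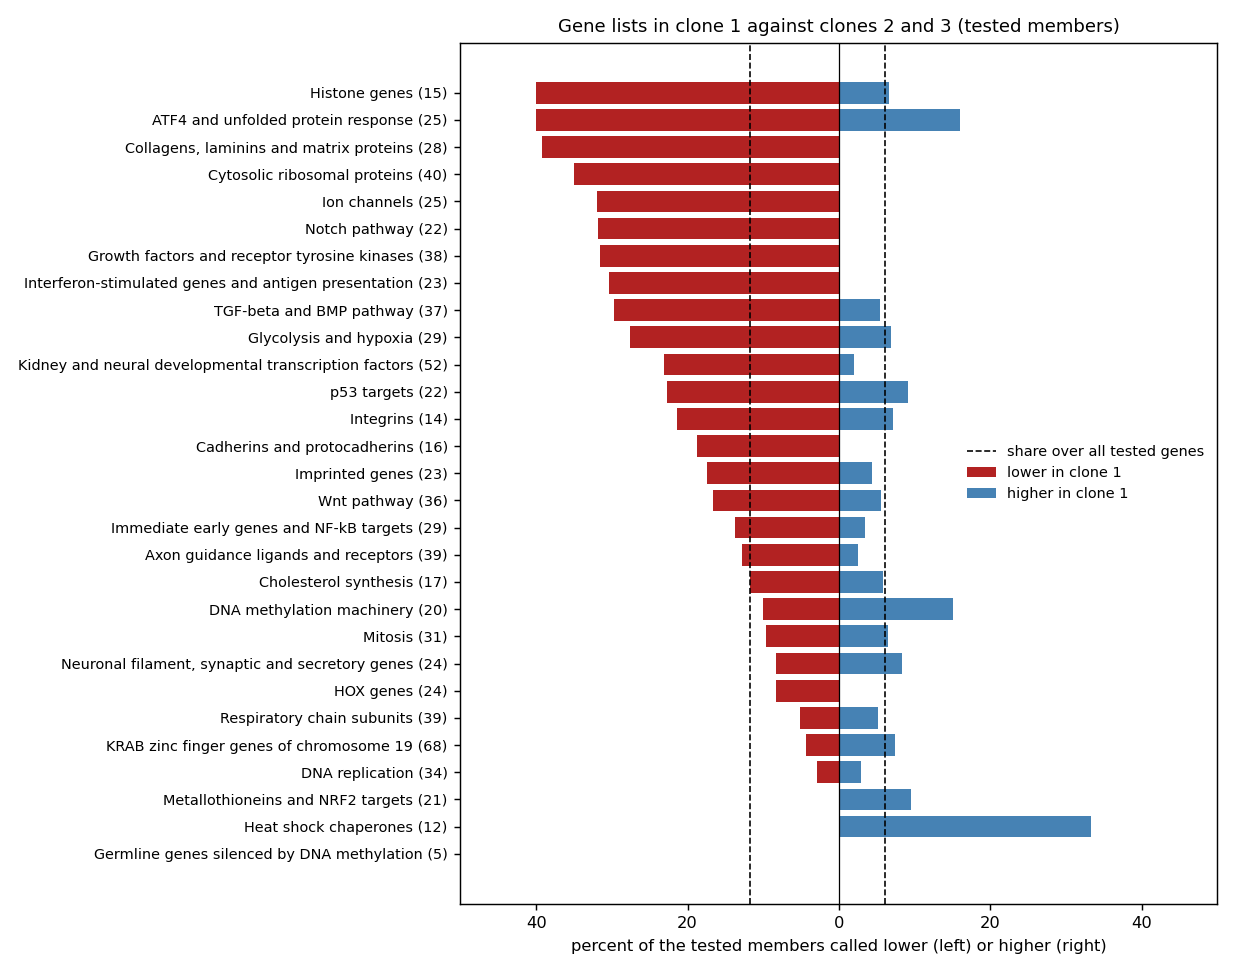
Percent of the tested members of each gene list (number in brackets) called lower (red, to the left) or higher (blue, to the right) in clone 1, with dashed lines at the shares over all tested genes, 11.8% and 6.06%. Matrix genes had 11 of 28 called lower and 0 higher; heat shock chaperones had 4 of 12 called higher and 0 lower.

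Stress and metabolic genes split by group. Among 25 genes of the ATF4 pathway and unfolded protein response, 10 were lower and 4 higher (median -0.13, and -0.20 within the TET siRNA arrays). ASNS, asparagine synthetase and an ATF4 target, had 15299 and 16135 in clone 1, 29553 and 29455 in clone 2 and 27406 and 32270.5 in clone 3, -0.91 (SE 0.07), while HSPA5, the endoplasmic reticulum chaperone BiP, had 21622 and 23195 in clone 1, 14218 and 13743 in clone 2 and 16165 and 13474 in clone 3, 0.64 (SE 0.08). VLDLR was -0.87 (SE 0.13). These moved in opposite directions, with narrow spread within each clone. Heat shock chaperones had 4 higher and 0 lower of 12 (median 0.09, and 0.17 with probe sets averaged): besides HSPA5 they included DNAJA1 at 0.52 (SE 0.06) and HSPH1 at 0.42 (SE 0.06). Glycolysis and hypoxia genes had 8 lower and 2 higher of 29 (median -0.20, and -0.11 after quantile normalization). NDRG1, a hypoxia-induced gene, had 5583 and 6883 in clone 1, 17106 and 18697 in clone 2 and 15341 and 20848 in clone 3, -1.53 (SE 0.07), DDIT4, an inhibitor of mTOR signalling, was -0.89 (SE 0.09), and the glucose transporter SLC2A1 was higher at 0.55 (SE 0.12).

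MYC, the growth-promoting transcription factor, had 12129 and 13641 in clone 1, 24008 and 23123 in clone 2 and 21393 and 26000.0 in clone 3, -0.87 (SE 0.07). Its list of immediate early genes and NF-kB targets had 4 lower and 1 higher of 29 (median -0.10), with DUSP4 at -0.59 (SE 0.12) and IER3, inside the chromosome 6 stretch, at -0.74 (SE 0.12). The p53 targets had 5 lower and 2 higher of 22 (median -0.003): GDF15 at -0.78 (SE 0.13), TIGAR at 0.55 (SE 0.10) and CDKN1A, in the chromosome 6 stretch, at -0.59 (SE 0.10). Interferon-stimulated and antigen presentation genes had 7 lower and 0 higher of 23 (median -0.26), and 3 lower outside chromosome 22 and the chromosome 6 stretch. BST2, the antiviral protein tetherin, had 143 and 95.8 in clone 1, 364 and 421 in clone 2 and 354 and 255 in clone 3, -1.55 (SE 0.25), IFITM1 was -1.03 (SE 0.12) and HLA-E, in the stretch, -0.72 (SE 0.08).

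Ribosomal protein genes had 14 lower and 0 higher of 40, all 40 with a negative difference (median -0.22). The largest were RPS4X at -0.35 (SE 0.10), RPL3, on chromosome 22, at -0.33 (SE 0.07) and RPS10, in the chromosome 6 stretch, at -0.32 (SE 0.08), with -0.32 to 0.20 at other probe sets. The median was -0.36 in the TET siRNA arrays and -0.11 in the non-targeting arrays, and it was -0.02 over all arrays after quantile normalization, so the size of this difference depended on the scaling of the arrays. These are among the brightest probe sets, and the clone 1 TET siRNA array was also the lowest at the Alu control, and the part of array brightness in this result was not tested. Histone genes had 6 lower and 1 higher of 15 (median -0.07). H2BC21, a histone H2B gene, had 335 and 154 in clone 1, 974 and 690.2 in clone 2 and 784 and 789 in clone 3, the linker histone gene H1-2 had 1369 and 1187 in clone 1, 3551 and 3399 in clone 2 and 3341 and 3035 in clone 3, -1.38 (SE 0.09), and H2BC4 was -0.75 (SE 0.22).

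The remaining lists had shares of lower calls at or under the 11.8% of all tested genes. Mitosis genes had 3 lower and 2 higher of 31 (median 0.02). CDK1 was -0.39 (SE 0.11), with -0.28 at another probe set, called, and -0.14 and -0.10 at others, not called. PRC1 was -0.31 (SE 0.07) and ECT2 0.43 (SE 0.10). DNA replication had 1 lower and 1 higher of 34 (median 0.02): CDC45, a helicase cofactor encoded on chromosome 22, had 2153 and 2905 in clone 1, 4279 and 4120.0 in clone 2 and 4302 and 4756 in clone 3, -0.80 (SE 0.10), and RPA2 was 0.28 (SE 0.08). Cholesterol synthesis had 2 lower and 1 higher of 17 (median -0.07; SQLE -0.60 (SE 0.07), IDI1 -0.45 (SE 0.08), with -0.38 to 0.26 at other probe sets, SC5D 0.31 (SE 0.07)). Respiratory chain subunits had 2 lower and 2 higher of 39 (median -0.06; SDHC 0.46 (SE 0.11), with -0.11 to 0.82 at other probe sets, NDUFA6 -0.38 (SE 0.06), NDUFV1 -0.36 (SE 0.09)). Metallothioneins and NRF2 targets had 2 higher and 0 lower of 21 (median 0.11; MT1H 0.42 (SE 0.12), GCLM 0.36 (SE 0.07)). KRAB zinc finger genes of chromosome 19 had 5 higher and 3 lower of 68 (median 0.03). ZNF551 was 0.61 (SE 0.12), with 0.07 and 0.33 at its other probe sets, not called. ZNF708 was 0.55 (SE 0.15). ZNF568 was -0.64 (SE 0.19), with -0.06, 0.35 and 0.40 at its other probe sets, not called. The medians of the cadherin, p53, mitosis, replication, respiratory chain and KRAB lists were close to 0 and turned sign under at least 1 other scaling, probe set rule, siRNA group or set of clones, so they carry no direction.

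Clone 1's differences were then set side by side in the separate siRNA groups. In the non-targeting arrays, 90 probe sets lay at least 1 log2 unit above both other clones in clone 1 and 337 at least 1 below both. In the TET siRNA arrays 27 of the 90 (30%) were again at least 1 above, against 0.443% of all tested probe sets, and 82 of the 337 (24.3%) again at least 1 below, against 0.989%. On the same side, by any amount, were 84.4% and 83.1%, against 50.5% and 49.5% of all. The same count for clone 2 was 8 of 42 above and 18 of 164 below, and for clone 3 it was 5 of 40 and 13 of 120. Since clone 1 was chosen on all 6 arrays, this describes how far its differences were shared by the siRNAs.

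A dependence of clone 1's difference on the siRNA, which the choice of clone 1 did not use, was not called for any of 27306 probe sets (0%; limma, smallest adjusted p 0.19), and 1515 (5.55%) had an unadjusted p under 0.05. The 6 other settings of the limma fit also called 0. The median SE of this interaction was 0.27 in log2 and its estimates reached at least 1 in size at 912 probe sets, so sizeable dependence at single genes was not detectable with 6 arrays. For CDH3 the difference was -3.75 in the TET siRNA arrays and -1.0 in the non-targeting arrays, and for CHSY3 it was -2.12 and -5.03 (adjusted p for either interaction 0.84 in limma). These gaps rest on single clone 1 signals of 16.8 and 8.96, under the lowest tested mean of 117. For TSPO it was -3.0 and -2.89, and for EPHA6 -2.1 and -2.21.

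Clones 2 and 3, compared with each other, differed at 30 probe sets (0.11%; limma with Benjamini-Hochberg adjustment), 12 higher and 18 lower in clone 2. They carry 22 named genes, chosen here after their values were seen. TENM1, a teneurin that organises neuronal connections, had 7048 and 6817 in clone 1, 659 and 551 in clone 2 and 40.7 and 41.6 in clone 3. Clone 2 was above clone 3 by 3.87 (SE 0.17, limma adjusted p 1.74e-06), and clone 1 was above both. ISL1, a LIM-homeobox factor of motor neurons and other lineages, had 24.8 and 77.1 in clone 1, 1457 and 1271 in clone 2 and 104 and 84.3 in clone 3, which put clone 2 above clone 3 by 3.86 (SE 0.46, limma adjusted p 0.016). The ISL1 signals of clones 1 and 3 and the TENM1 signals of clone 3 all lay under 117, the lowest mean tested. These sizes are therefore uncertain, and clones 1 and 3 are not ranked at ISL1. EDNRB, the endothelin receptor of neural crest cells, had 728 and 764 in clone 1, 1165 and 1011 in clone 2 and 115 and 153 in clone 3, with clone 2 above clone 3 by 3.03 (SE 0.20, limma adjusted p 4.71e-05).

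At EDNRB clone 1 was between the others, so each clone had its own level. CD99, a surface glycoprotein, had 1020.1 and 957 in clone 1, 56.8 and 123 in clone 2 and 2255 and 2253 in clone 3, and clone 2 minus clone 3 was -4.75 (limma adjusted p 0.00031). CTSZ, a lysosomal cathepsin, had 3993 and 3322 in clone 1, 2007 and 1734 in clone 2 and 759 and 646 in clone 3, with the clones in 3 steps and clone 2 above clone 3 by 1.41 (limma adjusted p 0.00023). GALNT13, which starts O-glycans in neural tissue, had 189 and 213 in clone 1, 770.5 and 478 in clone 2 and 98.1 and 64.7 in clone 3, a clone 2 excess of 2.93 (limma adjusted p 0.0018). Also under 117 were the TET siRNA signals of EDNRB in clone 3 and CD99 in clone 2, and both GALNT13 signals of clone 3. Those sizes are uncertain too. TENM1 had the clone 1 difference 5.46 (SE 1.87), larger than that of LNX1, yet was not called there, because clones 2 and 3 differ at it and the fit counts that difference as error. The same holds for ISL1 at -3.03 (SE 1.84).

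**Figure D5:**
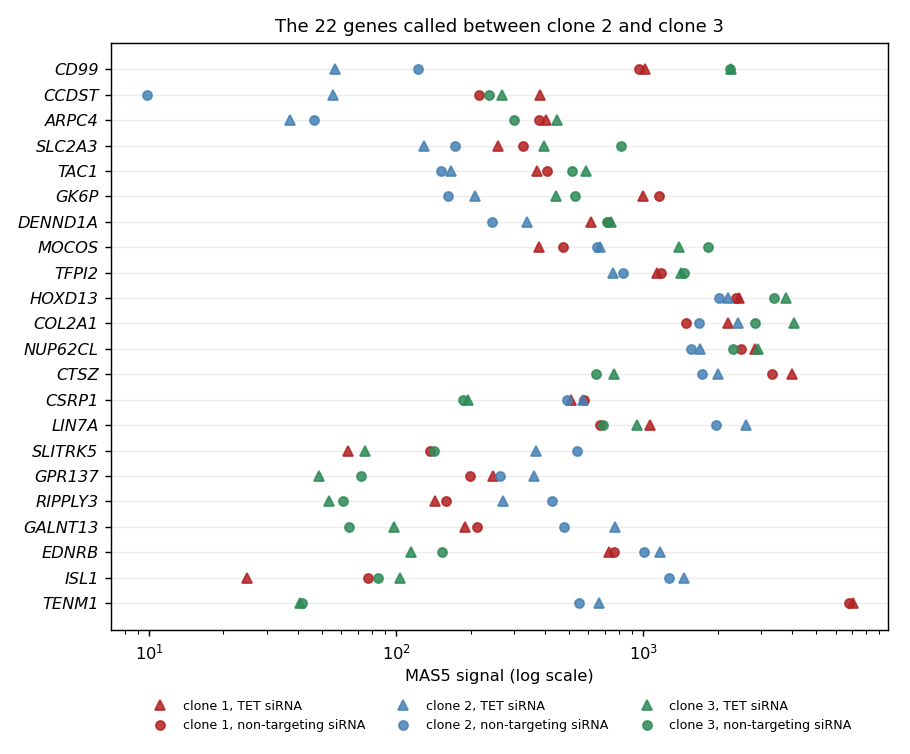
MAS5 signals (log axis) on the 6 arrays of the 22 genes called between clones 2 and 3, 1 point per array. Genes are ordered by the clone 2 minus clone 3 difference, from most negative to most positive. TENM1 was at 6817 and 7048 in clone 1, 551 and 659 in clone 2 and 40.7 and 41.6 in clone 3, so that here each clone had its own level. The TENM1 signals of clone 3 lay under 117, the lowest mean tested.

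By stretch, clones 2 and 3 differed most on chromosome 3, where the 25 genes from ARPC4 to SYN2 had a median of -0.37, clone 2 minus clone 3. In that window clone 1 differed from the mean of both by -0.09, but it lay near clone 2. With TET siRNA first, its medians were 0.04 and 0.02 against clone 2 and -0.24 and -0.28 against clone 3. Over all windows 6 reached -0.3 between clones 2 and 3 and 0 reached 0.3, and the highest median was 0.15, from HRAS to DUSP8 on chromosome 11. ARPC4, an actin-nucleating subunit at the start of the low window, was itself among the 22 genes. When each of the other clones took clone 1's place in the same fit, 4 probe sets (0.0146%) were called for clone 2 and 0 (0%) for clone 3, with 1180 and 730 at an unadjusted p under 0.05, against 8221 for clone 1. The SD of the differences over tested probe sets was 0.36 for clone 1, 0.28 for clone 2 and 0.25 for clone 3. These comparisons share arrays. The fits for clones 2 and 3 pool clone 1 with the remaining clone, so clone 1's differences count as error in them. Their median SE was 0.17 for clone 2 and 0.18 for clone 3, against 0.14 for clone 1. The counts are therefore values side by side and no measure of how distinct each clone was.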

How the data were processed

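Biotinylated cRNA of 6 cultures was measured on Affymetrix arrays, per the labels. The authors deposited linear intensities, a column for each array, made with MAS5 per the submitters' processing notes. Version of MAS5, batch and hybridisation order: not given in the sources used here. Each column had a trimmed mean (2% off either end) of 1000, and the values were used as scaled. MAS5 treats arrays one by one and leaves dim probe sets noisy; the number of arrays limits the precision.

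Leaving out 62 controls from 54675 probe sets, the platform annotation had 1 gene for 41091, several for 1801 and none for 11721; probe sets with several or none stay unnamed. Of the 41091, 41037 matched RefSeq (GRCh38.p14), which supplied current names, chromosomes and gene order. Log2 intensities of the upper 50% by mean were fitted in limma 3.58.1 (R 4.3.3, trended and robust empirical Bayes; two-sided, Benjamini-Hochberg over all tested probe sets), with the siRNA as a block. The clone 1 fit has 1 term for clone 1; the clone 2 against 3 fit has a mean per clone. Fits were tested on simulated data. Plots used matplotlib 3.10.9.

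Each gene is given by its brightest tested probe set. Named were TET1, TET2 and TET3, the 12 called genes of largest difference in each direction with both clone 1 arrays beyond the other 4, up to 3 called members of each list (else the 2 largest), and the end genes and 2 largest called genes of the 3 highest and 3 lowest windows of 25 genes (the first of equal windows). Any gene called in the interaction was to be named, and there was none. Other named genes were chosen after their values were seen. Members and lists were chosen with earlier results of these data known. Arrays with the same siRNA form the pairing, as the labels give 1 array per clone and siRNA. Nothing in the labels says that cultures were repeated.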

Additional observations from a re-analysis of the deposited data

Results flagged for a closer look

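At the brightest tested probe set of 6 named genes, clone 1 lay above both other clones under 1 siRNA and below both under the other. The other tested probe sets of TOP2A, DAXX, TUBB and TRIM27 did not show this. The interaction (the clone 1 difference with TET siRNA minus that with the non-targeting pool) was -0.47 for PRAME, -0.12 for TOP2A, -0.45 for TET3, 0.92 for DAXX, -0.25 for TUBB and -0.50 for TRIM27. In limma their adjusted p-values for the interaction were 0.90, 0.96, 0.90, 0.86, 0.90 and 0.85, so none passed. For TET3, a target of the siRNA, the difference was -0.16 in the TET siRNA arrays and 0.29 in the non-targeting arrays. Each clone had 2 arrays, 1 for each siRNA, too few for a check of single outlying arrays.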

How the results depend on the processing

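The 4087 probe sets called for clone 1 became 2478 with no brightness filter, 659 with plain empirical Bayes, 2183 with clone 3 left out, 1453 at an adjusted p under 0.01 and 326 with a difference of at least 1; leaving out single arrays gave 1124 to 4773. Without the replicate block (the siRNA pairing) 2432 were called, 15 between clones 2 and 3 and 1 for clone 3. The 30 probe sets of clones 2 and 3 became 16 with no filter, 15 in the upper 30% and 0 with plain empirical Bayes, as did the 4 of clone 2. The 109 probe sets apart in both siRNA groups became 962 at a margin of 0.5. The chromosome 22 median of -0.42 was -0.40 with arrays centred on their medians, -0.39 with each gene's tested probe sets averaged and -0.45 within the non-targeting arrays; the chromosome 6 stretch was -0.42 with probe sets averaged. None of 129 called named genes changed sign under the fits to all probe sets named in this paragraph or under log2 of signal plus 32, quantile normalization, a mean for each clone or clone 2 left out, nor did any of the 88 of them in the upper 30%; 55 kept their call under plain empirical Bayes and 70 without the clone 1 TET siRNA array. The counts and medians without genes of chromosome 22 and the stretch, and the ends of the stretch, were chosen after seeing the data. The lowest and highest windows were -0.63 and 0.30 over 15 genes and -0.56 and 0.16 over 50. With 1 line per clone, no setting separates clone 1 as a line from its cultures.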
